A study of Mus musculus with 24 samples.

Results

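Bisphenol A (BPA), a monomer of polycarbonate plastics and epoxy resins that binds weakly to estrogen receptors, was given alone to Ku70-/- mouse embryonic fibroblasts (MEFs), and transcript levels after 4 hr were compared with those after 24 hr. The comparison held the 3 arrays labeled as 150 μM BPA for 24 hr and the 3 labeled as 150 μM BPA for 4 hr, chosen by those labels. They are 6 of the 24 arrays of the series and belong to a second array set of 9. The other 3 arrays of that set held untreated cells, for which the labels name no time. The first set held untreated cells labeled 4 hr and, at both times, cells given 20 mM of the oxidizing agent KBrO3 alone for 1 hr or co-exposed to KBrO3 and 150 μM BPA, with 3 arrays in each group. All groups, untreated included, were the same immortalized line with a deletion of Ku70 (Xrcc6), a subunit of the heterodimer that binds broken DNA ends in non-homologous end joining, so the controls carry the deletion too. BPA was dissolved in ethanol according to the study's methods, and the labels name no vehicle control. The methods also count a stay in BPA that is 1 hr longer than the labels at each time.

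Fibroblasts answer an irritant much as sentinel cells do. Immediate early genes, such as the Egr and Fos families, are transcribed within minutes without new protein synthesis. The transcription factor NF-kB is then released from its IkB inhibitors and switches on chemokines, which draw in leukocytes, and cytokines such as interleukin 6. It also switches on its own inhibitors, among them IkBα (Nfkbia) and A20 (Tnfaip3), so that this response usually fades within hours while the cause is still present. Acute-phase proteins and the targets of the stress factor ATF4, which serve amino acid supply, can stay high for longer.

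On the 9 arrays of the second set 76.4 to 79.4% of the spots were well above background, as flagged by the scanner's software, and each array correlated with the others of its group with a mean r of 0.974 to 0.990. The root mean square of the residuals was 0.230 to 0.335 on the 4 hr arrays, 0.349 to 0.471 on the 24 hr arrays and 0.406 to 0.453 on the untreated arrays. No slide held arrays of both BPA times. The 12 fibroblast markers examined, such as Col1a1 and Vim, were all measured, with summed signals of 669 to 797 times an array's 75th percentile at 4 hr and 557 to 650 times at 24 hr, and 0 passed limma's test of change (4 with an unadjusted p below 0.05). Of the measured markers of endothelial, epithelial and fat cells, 4, 5 and 4 in number, 0 passed it as well (1, 2 and 0 with an unadjusted p below 0.05), and Pecam1 was not well above background on any of the 9 arrays. The probe for Xrcc6 gave -0.35 ± 0.19 at 4 hr and 0.33 ± 0.36 at 24 hr (SD, n = 3, adjusted p = 0.155), and where it lies relative to the deletion is not given, so it checks nothing about the genotype. With 3 arrays in each group precision was limited. The p-values rest on the spread within groups, pooled over the 9 arrays with the untreated ones included. Differences between slides are part of that spread. The series describes the 3 experiments of a group as independent, and the first and the third 4 hr array lay on one slide.

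From 4 to 24 hr of BPA 204 of 15878 protein-coding genes rose and 499 fell. Levels are log2 signals relative to the 75th percentile of the array, and a gene was called when its Benjamini-Hochberg adjusted p was below 0.05 and its fold change above 1.5. The share called was 4.43% of all genes tested, or 1.28% higher and 3.14% lower. The median fold was 2.86 among the genes that fell and 2.28 among those that rose, and changes over 4-fold numbered 128 falls and 15 rises. Of the called genes 29 that fell and 13 that rose had no array well above background at the time where they were low. They passed the filter through the other time alone, and their folds are not measured. Without them 470 genes fell with a median fold of 2.81 and 191 rose with 2.24, and 110 falls and 11 rises were over 4-fold. In all 703 called genes the 3 arrays of one time lay clear of the 3 of the other, which was also true of 4961 genes in all (31.2%). Under a cutoff borrowed from the study, a Bonferroni p below 0.01, there were 11 called genes (0.0693%), all of them lower at 24 hr. The study applied that cutoff to another test, an error-weighted analysis of variance with folds against untreated cells. Leaving out one array of the second set at a time gave 209 to 724 called genes, and 185 genes, 162 of them lower, kept the call in all 9 such fits. The count was 331 without the first 4 hr array, 233 without the second and 209 without the third, and 397 without the second 24 hr array. Slide as a fixed block, where no slide held both times, and normexp background correction each gave 0 calls, and slide as a random block gave 615. Normexp without the spots far below their background, an alternative chosen after the data were seen, gave 771. The median change over all genes tested was 0.06, and scaling each array to its median moved it to 0.17.

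The untreated arrays give the level from which each change is seen. Against them 488 genes were higher and 274 lower at 4 hr (3.07% and 1.73%), and 296 were higher and 399 lower at 24 hr (1.86% and 2.51%). The split depends on scaling, since scaling to the median gave 343 higher and 128 lower at 4 hr and 227 and 225 at 24 hr. Of the 499 genes that fell, 201 were above untreated at 4 hr and 172 were below untreated at 24 hr, 6 of them both, and 132 were neither. Of the 204 that rose, 52 were below untreated at 4 hr, 54 were above it at 24 hr and 98 were neither. Leaving out an array changed these counts too. The 762 genes at 4 hr became 202 to 308 without any one 4 hr array, 402 without the second and 340 without the third untreated array. The 695 genes at 24 hr became 320 and 440 without the first and the third untreated array, 398 and 323 without the first and second 24 hr array, and 442 and 354 without the first and the third 4 hr array. These comparisons share the BPA arrays with the main one, so that a gene picked for its fall leans above untreated at 4 hr or below it at 24 hr, and the counts among the called genes are a description alone. Since the untreated cells have no time label, time in BPA and time in culture cannot be told apart. Within a slide, against the untreated array on it, Xdh was higher by 0.90 and 0.59 on the 4 hr arrays and by 2.31 and 3.05 on the 24 hr arrays that share one. The median of the chemokine list was 1.67 and 2.00 and then 0.53 and 0.48 by the same measure, against -0.12 and -0.06 and then 0.06 and 0.01 over all genes. Of the 73 named genes that were called, 66 were well above background on at least 1 array of each of the 3 groups. All 66 kept their direction on this measure and 7 changed over 1.5 times less. These were Xdh (1.94, against 3.32 over all arrays), Kng2 (0.76 against 2.81), Serpina3n (0.49 against 2.37), Nts (-1.58 against -3.57), Fry (0.92 against 1.39), Fgf21 (-0.47 against -2.32) and Esrrg (-1.29 against -1.94). These values rest on 2 arrays of each time, and no test was made of them. Both 4 hr arrays were set against one and the same untreated array. As the genes were called on these same BPA arrays, keeping their direction is no separate support.

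**Figure D1:**
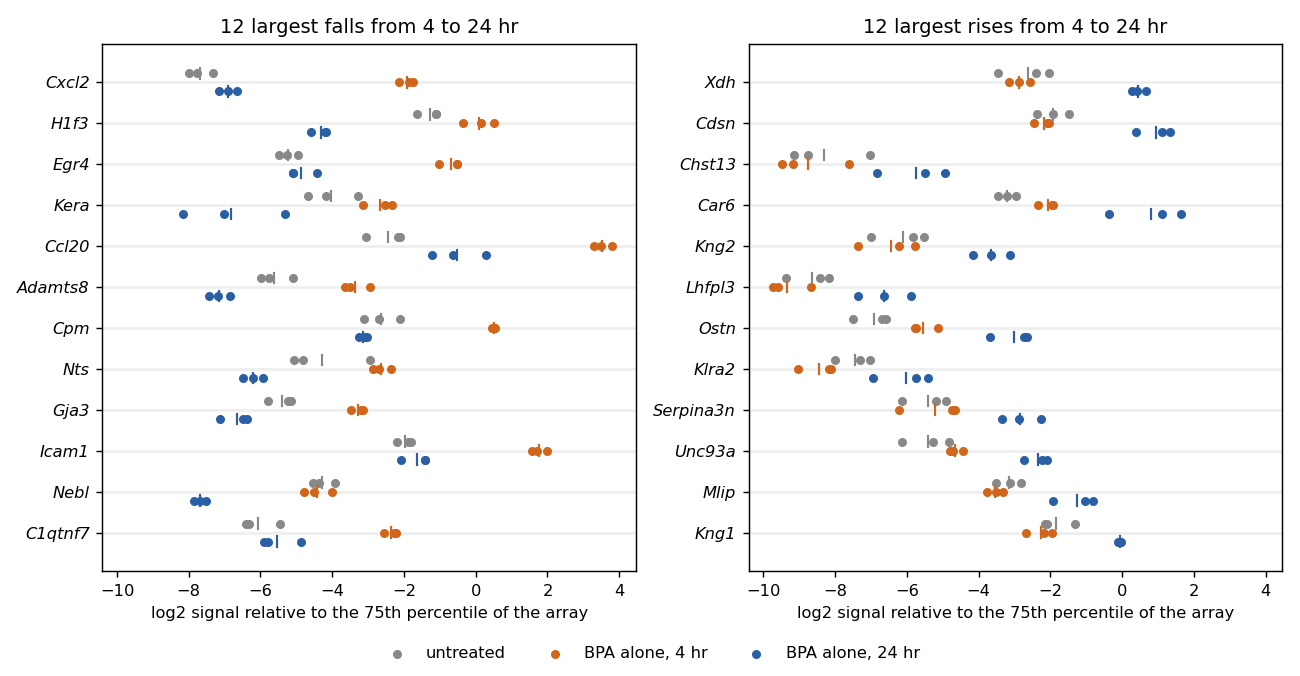
Levels of the 12 genes with the largest fall and the 12 with the largest rise from 4 to 24 hr of BPA, as log2 signal relative to the 75th percentile of the array (horizontal axis). Points are the 3 arrays of each group and short vertical lines are group means. The 4 hr and 24 hr arrays of every gene shown lie apart, and the 4 hr arrays of Cxcl2, Ccl20 and Icam1 also lie above the untreated arrays. Signals near the left edge, such as those of Chst13, Lhfpl3 and Klra2 at 4 hr, were not well above background.

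Chemokines and cytokines fell together. Of 28 measured members 19 fell and none rose, against 3.14% of all genes lower, and the median change was -1.46 against 0.06 over all genes. The list's median level was -0.58, -0.72 and -0.67 on the 4 hr arrays and -1.94, -2.25 and -2.16 on the 24 hr arrays, between -2.17 and -2.46 in untreated cells. At 4 hr 19 members were above untreated (3.07% of all genes were), and at 24 hr 8 were above it (1.86%) and 1 was below it (2.51%). Ccl11 and Csf2, both among the 19 that fell, were not well above background on any 24 hr array and passed the filter through the 4 hr arrays alone. The number that fell was 11 without the second or the third 4 hr array, 13 without the second 24 hr array, and 15 or more without any other array.

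Cxcl2, a chemokine for neutrophils, had the largest fall of all genes. Its levels were -7.32, -7.77 and -8.0 in untreated cells, -2.15, -1.75 and -1.86 at 4 hr, and -6.66, -7.15 and -6.90 at 24 hr. All 4 hr arrays lay far above the others, and the untreated arrays were not well above background. The 24 hr mean was 31.7-fold lower than the 4 hr mean (log2 change -4.99 ± 0.24 SE, adjusted p = 0.000121), and the 4 hr mean was at least 47.5-fold above untreated (adjusted p = 3.15e-05, untreated mean -7.70, 4 hr mean -1.92).

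Ccl20, the ligand of the receptor CCR6 on lymphocytes and dendritic cells, stood at 3.31, 3.79 and 3.49 at 4 hr and at 0.28, -0.64 and -1.21 at 24 hr, with untreated levels of -2.16, -2.12 and -3.06. The 3 groups did not overlap. The change was -4.05 ± 0.39 (SE, adjusted p = 0.00139), and at 24 hr Ccl20 was still 1.93 above untreated on the log2 scale (adjusted p = 0.033).

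Il6, which encodes the cytokine that drives the acute-phase response, had levels of 0.37, 0.81 and 0.96 at 4 hr, -1.88, -2.19 and -3.22 at 24 hr and -5.25, -4.74 and -4.86 in untreated cells. It came down only part of the way. The change was -3.14 ± 0.35 (SE, adjusted p = 0.00226), and Il6 remained 2.52 above untreated at 24 hr (adjusted p = 0.0073).

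Cxcl9, a T-cell chemokine induced by interferon, came down to the range of the untreated arrays, from -3.18 ± 0.10 at 4 hr to -6.15 ± 0.23 at 24 hr (SD, n = 3) with -5.89 ± 0.54 in untreated cells. Other members with changes between -1.84 and -2.78 that stayed above untreated at 24 hr were the monocyte chemokines Ccl2 (-2.67) and Ccl7 (-1.84), the neutrophil chemokine Cxcl1 (-2.78) and Cxcl10 (-1.90). The call of Ccl7 was lost without any 4 hr array or the second or the third 24 hr array. Cxcl1, Cxcl2 and Cxcl3 are close copies, whose probes were not examined for cross-hybridization. Cxcl14 took another course. It was 1.07 above untreated at 4 hr, short of the threshold (adjusted p = 0.16), and 1.71 below it at 24 hr (adjusted p = 0.044), after a change of -2.78. The T-cell chemokine Ccl5 did not come down with the others, with mean levels of 3.38 untreated, 4.68 at 4 hr and 5.17 at 24 hr and a change of 0.48 (adjusted p = 0.29). Il1b and Csf3 were not well above background on any of the 9 arrays. Macrophages, another source of chemokines, were looked for by 9 markers, of which Ptprc and Mrc1 were not well above background on any array. Their summed signal was 1.25 to 1.42 times the 75th percentile at 4 hr, 1.09 to 1.25 times at 24 hr and 1.14 to 1.47 times in untreated cells, and 0 of the 7 measured passed limma's test of change (1 with an unadjusted p below 0.05). Against untreated, Fcgr1 was 1.46 higher at 4 hr (adjusted p = 0.0141) and Lyz2 was 1.69 lower at 24 hr (adjusted p = 0.0169). The part of macrophages in the chemokine levels was not tested.

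The promoters of 4 genes that rose and fell in this way are shown because NF-kB is known to act on them through sites of one consensus. The sequences are the 250 bases before the annotated start, 5′ to 3′ on the gene's strand, from RefSeq on GRCm38.p6, and capitals mark matches to the NF-kB consensus, searched on both strands and joined where they overlap. The intervals are chr5:90903649-90903898 for Cxcl2, chr1:83116516-83116765 for Ccl20, chr5:30012864-30013113 for Il6, all on the forward strand, and chr10:19015411-19015660 for one of the 2 annotated starts of Tnfaip3, on the reverse strand. Among the 32851 promoters listed by RefSeq 3.90% hold such a match, and of 12703 tested genes with a promoter there 5.39% do. Of the 18 measured chemokines and cytokines with a promoter there 8 hold one (44.4%), and 7 of the 13 that fell do. Of 22 such genes of the NF-kB list 10 hold one (45.5%), and 6 of the 12 that fell do. Each list contains its members that fell, the counts are small, and no test was made of these shares. In Cxcl2 the match begins 97 bases before the start, in Ccl20 80 bases and in Il6 44 bases before it, and Tnfaip3 has matches at 125 and 12 bases. A match describes letters only, and genes without one in this window, such as Icam1, were not searched further away.
Cxcl2: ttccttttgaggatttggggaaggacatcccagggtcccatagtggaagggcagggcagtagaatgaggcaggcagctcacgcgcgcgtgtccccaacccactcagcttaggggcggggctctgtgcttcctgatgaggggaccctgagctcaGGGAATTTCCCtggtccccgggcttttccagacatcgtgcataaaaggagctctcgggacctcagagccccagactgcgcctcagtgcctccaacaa
Ccl20: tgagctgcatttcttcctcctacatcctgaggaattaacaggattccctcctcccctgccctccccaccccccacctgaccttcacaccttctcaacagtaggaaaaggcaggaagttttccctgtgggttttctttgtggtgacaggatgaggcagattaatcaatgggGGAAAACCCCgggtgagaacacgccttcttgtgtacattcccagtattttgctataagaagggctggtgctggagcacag
Il6: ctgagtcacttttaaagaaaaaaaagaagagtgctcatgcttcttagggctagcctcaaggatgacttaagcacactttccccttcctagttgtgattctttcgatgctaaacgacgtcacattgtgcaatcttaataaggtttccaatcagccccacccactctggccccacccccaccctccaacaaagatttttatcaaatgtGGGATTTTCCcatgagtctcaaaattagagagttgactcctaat
Tnfaip3: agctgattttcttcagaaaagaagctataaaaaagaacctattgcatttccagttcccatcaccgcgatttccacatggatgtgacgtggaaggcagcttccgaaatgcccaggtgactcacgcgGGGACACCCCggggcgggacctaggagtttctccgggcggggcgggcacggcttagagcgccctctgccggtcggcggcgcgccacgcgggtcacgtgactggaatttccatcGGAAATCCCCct

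NF-kB subunits, inhibitors and feedback targets moved in the same way. Of 27 measured members 17 fell and none rose, against 3.14% of all genes lower, with a median change of -1.30. At 4 hr 19 were above untreated, against 3.07% of all genes, and at 24 hr 4 were, against 1.86%. The number that fell was 11 without the third 4 hr array, 12 without the second, and 14 or more without any other array.

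Icam1, the adhesion molecule that leukocytes bind on activated cells, had levels of 1.69, 1.57 and 2.00 at 4 hr, -2.07, -1.42 and -1.41 at 24 hr and -2.19, -1.81 and -1.90 in untreated cells. The 24 hr arrays overlapped the untreated arrays, and the 4 hr arrays stood apart. Its change was -3.39 ± 0.24 (SE, adjusted p = 0.000624), and a second probe gave -3.06.

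Tnfaip3, the ubiquitin-editing inhibitor of NF-kB whose promoter is printed above, went from 2.26, 2.61 and 2.59 at 4 hr to -0.86, -0.72 and -0.10 at 24 hr, with -0.56, -0.12 and -0.70 in untreated cells. The change was -3.05 ± 0.26 (SE, adjusted p = 0.000899), and at 24 hr its difference from untreated was -0.10 (adjusted p = 0.88). Tlr2, a receptor for bacterial lipoproteins, and Ripk2, a kinase of the NOD receptors, fell by 2.46 and 2.43. Among the inhibitors Nfkbia fell by 1.82, Nfkbie by 2.17 and Nfkbiz by 2.08, and among the subunits Nfkb1 fell by 1.30, Nfkb2 by 1.17 and Relb by 1.44. The calls of Nfkbia and Nfkb2 were lost without the second or the third 4 hr array, that of Nfkb2 also without any 24 hr array, and that of Nfkb1 without the third 4 hr array. Zc3h12a, an RNase that degrades Il6 mRNA, fell by 2.25. Sod2, the mitochondrial superoxide dismutase, was an exception, above untreated by 1.51 at 4 hr and by 1.13 at 24 hr with a change of -0.38 (adjusted p = 0.36).

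**Figure D2:**
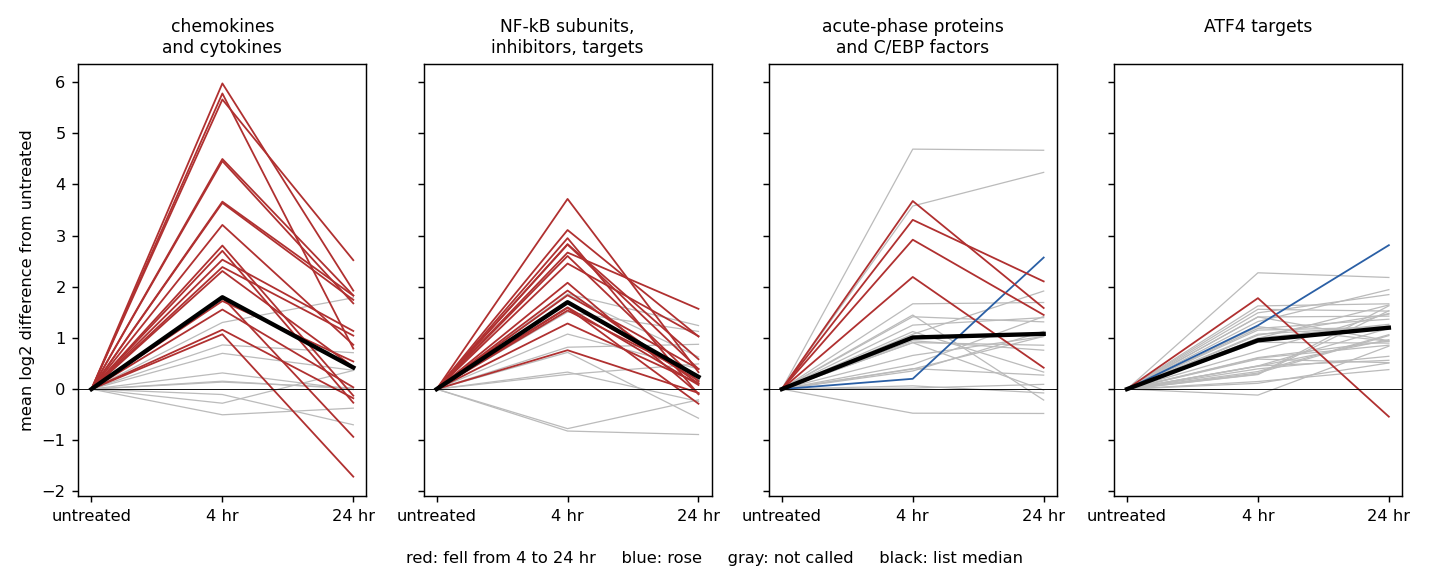
Mean log2 difference from the untreated arrays (vertical axis) at 4 and 24 hr of BPA for each measured gene of 4 lists. Red lines are genes called lower and blue lines genes called higher from 4 to 24 hr, gray lines are genes not called, and black lines are list medians, which go from 1.80 to 0.42 for chemokines and cytokines, 1.70 to 0.24 for the NF-kB list, 1.01 to 1.08 for acute-phase proteins and 0.95 to 1.2 for ATF4 targets. The untreated signal of Cxcl2 was not well above background.

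Immediate early genes fell in part. Of 38 measured members 11 fell and none rose, against 3.14% of all genes lower, with a median change of -0.68. Of these members 18 were above untreated at 4 hr (3.07% of all genes), and at 24 hr 3 were above (1.86%) and 3 below (2.51%). The number that fell was 5 without the second or the third 4 hr array or the second 24 hr array, and 7 without the first 4 hr or the third 24 hr array. Egr4, a zinc-finger factor, had the largest change of the list, with -1.03, -0.53 and -0.52 at 4 hr against -5.09, -4.43 and -5.08 at 24 hr and -4.97, -5.25 and -5.47 in untreated cells. The 24 hr and untreated arrays overlapped. The change was -4.18 ± 0.26 (SE, adjusted p = 0.000425).

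Arc, Egr3 and Egr2 ended under the untreated mean. Arc, known for its role in synaptic plasticity, was 1.75, 1.56 and 1.88 at 4 hr and -0.97, -0.40 and -0.64 at 24 hr, where untreated cells had 0.72, 0.75 and 1.05. All 24 hr arrays lay below all untreated ones, and the difference passed the test (-1.51, adjusted p = 0.00785). Egr3 fell by 2.53 and was also below untreated at 24 hr (-1.46, adjusted p = 0.014), and Egr2 fell by 2.45 with -0.77 against untreated (adjusted p = 0.28). Fos, Junb and Egr1 fell by 1.39, 1.35 and 1.03, and each of these calls was lost without the second or the third 4 hr array, among others. Fosl1, Myc and Atf3 were above untreated at both times, Atf3 by 2.56 and then 1.86 and Fosl1 by 1.59 at each.

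In the prostaglandin list 5 of 20 measured members fell and 1 rose, where 3.14% of all genes fell and 1.28% rose, with a median change of -0.24. Ptgs2, the inducible cyclooxygenase, was -0.01, 0.26 and -0.00 at 4 hr and -1.76, -2.76 and -2.84 at 24 hr, against -2.69, -2.76 and -3.12 in untreated cells. It fell by 2.54 (SE 0.30, adjusted p = 0.00298). The receptor genes Ptgfr and Ptgir fell by 1.5 and 1.07, and Ptger2 was lower at 24 hr by at least 1.54-fold (adjusted p = 0.0135, means -7.01 and -8.28). Ptger2 was not well above background on any 24 hr array and passed the filter through the 4 hr arrays alone, so that its p-value and its place among the 5 rest on unmeasured 24 hr levels, and its change was -1.04 under normexp and -0.07 once spots far below their background were left out. Abcc4, which exports prostaglandins, rose by 1.2 (adjusted p = 0.024). Hpgd, which breaks prostaglandins down, was below untreated at both times by 2.31 and 2.77, and its change of -0.45 missed the threshold (adjusted p = 0.46). The number that fell was 2 without the first or the third 4 hr array, 3 without the second 4 hr or the second 24 hr array, and the call of Abcc4 was lost without any of the 4 hr arrays or without the first or second 24 hr array. Of 38 interferon response genes 5 fell and none rose, where 3.14% of all genes fell, with a median of -0.10. The number that fell was 0 without the second or the third 4 hr array, 1 without the second 24 hr array, 2 without the first 4 hr or the third 24 hr array, and 3 without the first 24 hr or the third untreated array. Calhm6 fell by 1.32, Gbp2 by 1.10, Irf1, a factor that NF-kB and interferons induce, by 1.07, and Ifit1 by 1.06.

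Acute-phase proteins did not move as one group. Of 24 measured members 4 fell and 1 rose, where 3.14% of all genes fell and 1.28% rose, and the median change was -0.04. Above untreated were 10 at 4 hr and 9 at 24 hr, against 3.07% and 1.86% of all genes. No member kept its call in all 9 fits that left out an array, and 0 fell without the second or the third 4 hr array and 2 without the second 24 hr array. Saa3, an acute-phase serum amyloid, was 0.22, 0.92 and 0.92 at 4 hr and 0.96, 0.23 and 0.81 at 24 hr, against -3.98, -3.41 and -4.62 in untreated cells. The 2 times overlapped throughout, and both lay far above untreated (4.69 and 4.67, adjusted p = 0.00036 and 0.0014). Lcn2, an iron-withholding lipocalin, was likewise 3.58 and 4.24 above untreated, with -0.54, -0.73 and -0.36 at 4 hr and 0.36, -0.40 and 0.39 at 24 hr (change 0.66, adjusted p = 0.42). The hemoglobin scavenger Hp was 1.07 and 1.92 above untreated and changed by 0.84 (adjusted p = 0.057).

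The members that fell were Fgg, a fibrinogen chain (-2.09), Saa2 (-1.77), Serpina3g (-1.47) and the factor Cebpd (-1.2). Serpina3n, a serine protease inhibitor, rose by 2.37 (SE 0.49, adjusted p = 0.0308), from -4.67, -6.21 and -4.74 to -3.36, -2.89 and -2.27, with -6.14, -4.90 and -5.19 in untreated cells. Against the untreated array of the same slide Serpina3n was 1.47 and 1.40 higher at 4 hr and 1.54 and 2.30 higher at 24 hr, and its change under normexp was 0.42, or 1.25 once spots far below their background were left out. The call of Serpina3n was lost without any of the 4 hr arrays or without the second or the third 24 hr array. Saa1 and Saa2, like the Serpina3 genes, are close copies, and cross-hybridization among them was not examined.

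Many ATF4 targets were raised at both times. Of 32 measured members 15 were above untreated at 4 hr and 21 at 24 hr, against 3.07% and 1.86% of all genes, none was below at either time, and 2 changed between the times, 1 in each direction, a share near the 4.43% of all genes. Chac1, which degrades glutathione, was 2.27 and 2.18 above untreated, the asparagine synthetase Asns 1.49 and 1.85, and the pseudokinase Trib3 1.32 and 1.94. Cth, cystathionine gamma-lyase, rose from 0.27, -0.04 and -0.02 to 2.06, 1.92 and 0.94 (change 1.57 ± 0.33 SE, adjusted p = 0.0337), and Fgf21, a hormone, fell from -5.02, -4.94 and -5.05 to -7.10, -6.89 and -7.97, where 2 of 3 arrays were well above background (-2.32 ± 0.42 SE, adjusted p = 0.0184). Both calls depended on single arrays, since that of Cth was lost without any 4 hr array or the first or second 24 hr array, and that of Fgf21 without any 4 hr array or the third 24 hr array.

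The largest rises concerned genes of varied function. Xdh, the enzyme that turns hypoxanthine and xanthine into uric acid, had levels of -2.58, -3.17 and -2.88 at 4 hr and 0.28, 0.66 and 0.41 at 24 hr, and -3.47, -2.04 and -2.39 in untreated cells. The 24 hr arrays stood alone. It rose 10.0-fold (3.32 ± 0.35 SE, adjusted p = 0.00192), and a second probe gave 4.17.

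Cdsn, corneodesmosin of the epidermal cornified layer, rose from -2.03, -2.46 and -2.09 to 1.10, 1.34 and 0.39 (3.14 ± 0.31 SE, adjusted p = 0.00144), with -2.37, -1.48 and -1.91 in untreated cells. Car6, a secreted carbonic anhydrase, rose from -1.94, -1.96 and -2.34 to 1.64, 1.10 and -0.36 (2.87 ± 0.44 SE, adjusted p = 0.00942), and its untreated levels of -3.22, -2.96 and -3.47 lay below both. Ostn, the secreted peptide osteocrin, rose from -5.78, -5.13 and -5.74 to -2.73, -2.66 and -3.68 (2.53 ± 0.36 SE, adjusted p = 0.00671). Its change ranged from 0.29 to 3.41 across the alternatives of processing. Car6 and Ostn were 4.01 and 3.91 above untreated at 24 hr. The call of Car6 was lost without the third 4 hr array.

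The kininogens Kng1 and Kng2, precursors of bradykinin, rose by 2.20 (SE 0.27, adjusted p = 0.00387) and 2.81 (SE 0.50, adjusted p = 0.0162). Kng1 went from -1.95, -2.68 and -2.17 to -0.02, -0.12 and -0.07. They are close copies, whose probes were not examined for cross-hybridization, and the call of Kng2 was lost without the second or the third array of either time. Across the alternatives of processing the change of Kng2 ranged from 0.11 to 2.92. Unc93a and the lamin-interacting Mlip rose by 2.30 and 2.28 and kept their calls in all 9 fits. Chst13, a sulfotransferase, Lhfpl3 and Klra2 were not well above background on any 4 hr array and passed the filter through the 24 hr arrays alone, so that only bounds can be given and their p-values rest on unmeasured 4 hr levels. All 3 changes turned negative under normexp. Chst13 was at least 3.41-fold higher at 24 hr (adjusted p = 0.0488, means -8.75 and -5.76), Lhfpl3 at least 1.87-fold (adjusted p = 0.0136, means -9.34 and -6.63) and Klra2 at least 2.83-fold (adjusted p = 0.0196, means -8.44 and -6.03). The call of Chst13 was lost without any 4 hr array, the first or second 24 hr array or the third untreated array. That of Klra2 was lost without any 4 hr array or the first or second 24 hr array, and that of Lhfpl3 without the first or the third 4 hr array.

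Several of the largest falls ended below the untreated level. H1f3, which encodes the linker histone H1.3, had levels of -0.36, 0.50 and 0.16 at 4 hr, -4.20, -4.60 and -4.17 at 24 hr and -1.12, -1.10 and -1.64 in untreated cells. The 3 groups did not overlap, and the order was 4 hr, untreated, 24 hr. It fell 21.5-fold (-4.42 ± 0.27 SE, adjusted p = 0.000425) and was 3.03 below untreated at 24 hr (adjusted p = 0.0022). A second H1f3 probe gave -2.66.

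Adamts8, a metalloproteinase, was -3.63, -2.96 and -3.52 at 4 hr and -7.18, -7.43 and -6.84 at 24 hr, a change of -3.78 ± 0.29 (SE, adjusted p = 0.000696), and Gja3, the gap junction protein connexin 46, changed by -3.39 ± 0.26 (SE, adjusted p = 0.000696). At 24 hr 1 of 3 arrays was well above background for Adamts8 and 2 of 3 for Gja3. Both genes were above untreated at 4 hr (2.25 and 2.13) and below it at 24 hr (-1.53 and -1.26). The other 2 probes of Gja3 gave -1.09 and -0.02, so its probes disagree in size. Cpm, the membrane carboxypeptidase M, rose over untreated by 3.14 and then fell by 3.63 to 0.49 beneath it (adjusted p = 0.35). C1qtnf7 fell by 3.18 to a level 0.53 above untreated (adjusted p = 0.45). Nts, the peptide neurotensin, fell by 3.57 from -2.69, -2.37 and -2.86 to -6.50, -6.22 and -5.92, and its untreated arrays spread widely, from -2.94 to -5.06. Kera, a corneal keratan sulfate proteoglycan, fell by 4.16, with 2 of 3 arrays well above background at 24 hr, and lost its call without the second or the third 4 hr array.

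Of 30 measured genes of muscle and myofibroblast contraction 8 fell and none rose, where 3.14% of all genes fell, with a median change of -0.59. None was above untreated at either time, and 2 were below it at 4 hr and 7 at 24 hr, against 1.73% and 2.51% of all genes. The number that fell was 4 without the second or the third 4 hr array, 5 without the first, and 6 or more without any other array. Nebl, a nebulin relative of the Z-disc, was -4.01, -4.50 and -4.78 at 4 hr and -4.37, -3.93 and -4.52 in untreated cells, which overlapped, and not well above background on any 24 hr array. It was lower at 24 hr by at least 8.37-fold (adjusted p = 0.000696, means -4.43 and -7.69), and since it passed the filter through the 4 hr arrays alone, its p-value rests on unmeasured 24 hr levels. The myosin heavy chains Myh8 and Myh2 fell by 2.09 and 1.81 and were 2.92 and 2.33 below untreated at 24 hr. The actins Acta1, Acta2 and Actc1 fell by 1.49, 1.23 and 1.17, and the smooth muscle protein Tagln by 1.49. The calls of Acta2, Actc1 and Tagln were lost without any 4 hr array, that of Actc1 also without any 24 hr array and that of Tagln without the second or the third. In bulk RNA, fewer cells of a type and less RNA per cell cannot be told apart. The skeletal muscle marker Des was not well above background on any of the 9 arrays, and 1 of 6 measured markers of that tissue, Myh2 itself, fell.

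In the matrix lists, Eln, Col11a1 and Lum fell by 1.53, 1.21 and 0.99 among 28 collagens and fibrillar components (3.14% of all genes fell), with a median change of -0.27. None of these 3 calls held without the second or without the third 4 hr array, and 1 was left without the first 4 hr or the second 24 hr array. The call of Lum was lost in 8 of the 9 fits that left out an array. Among 17 metalloproteinases and inhibitors 2 rose (1.28% of all genes did), Mmp15 by 1.56 and Timp4 by 1.15, and the call of Timp4 was lost without any 4 hr array or the first or the third 24 hr array. The change of Mmp15 turned to -0.29 under normexp, and that of Timp4 ranged from 0.05 to 1.27 across the alternatives of processing. The collagenase Mmp13 was 2.67 and 2.52 above untreated at 4 and 24 hr and did not change between them (-0.14, adjusted p = 0.73).

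**Figure D3:**
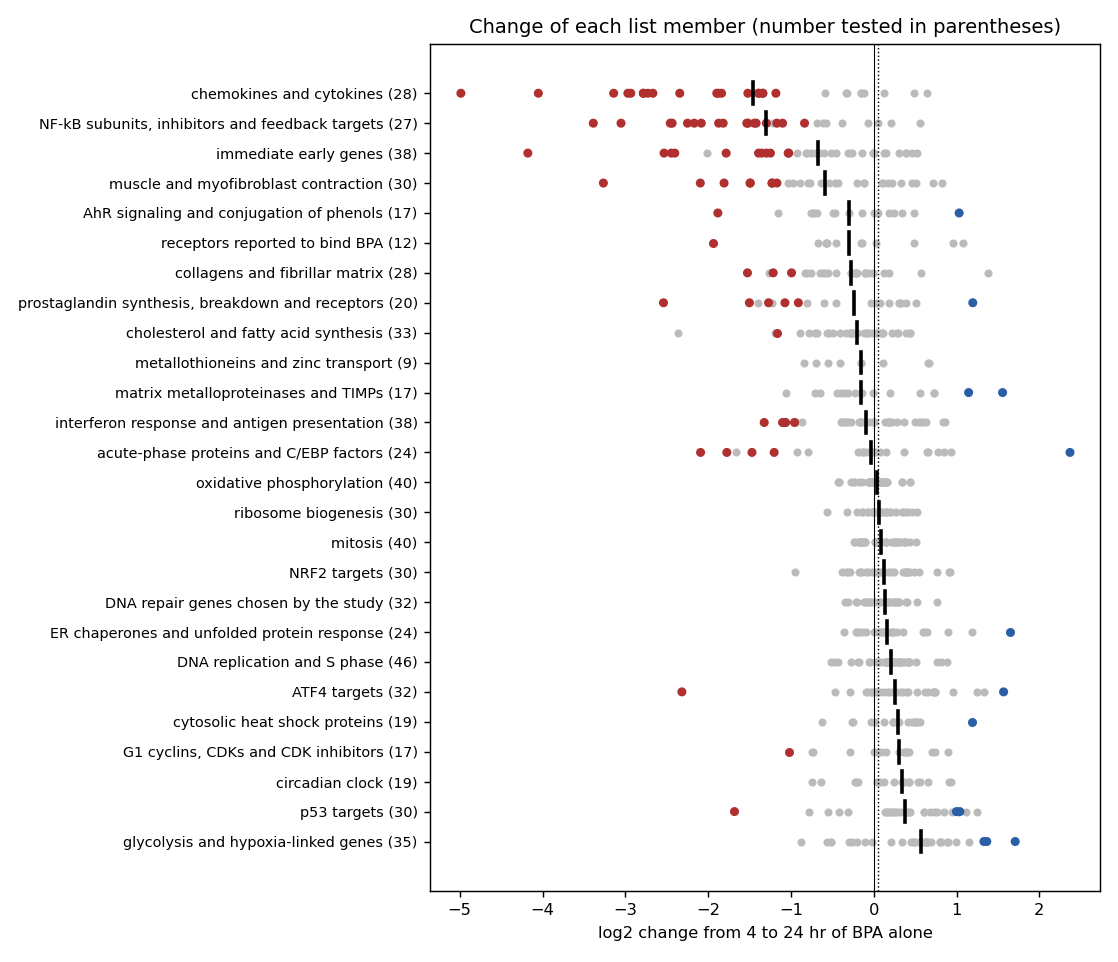
Log2 change from 4 to 24 hr of BPA (horizontal axis) of every measured member of 26 gene lists, with the number measured in parentheses. Red points fell and blue points rose by the test, gray points did not pass it, black bars are list medians and the dotted line is the median of all genes tested, 0.06. Chemokines and the NF-kB list lie farthest to the left, with medians of -1.46 and -1.30, and glycolysis and hypoxia-linked genes farthest to the right, with 0.57.

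Of 35 glycolysis and hypoxia-linked genes 3 rose and none fell, where 1.28% of all genes rose, with a median change of 0.57, and 24 had an unadjusted p below 0.05, as did 21.6% of all genes tested. Pfkl, a subunit of phosphofructokinase, rose from 0.52, -0.12 and 0.43 to 1.69, 2.45 and 1.82 (1.71 ± 0.27 SE, adjusted p = 0.0112), the lactate exporter Slc16a3 by 1.37 and Ankrd37 by 1.33. The number that rose was 2 without either the first or the third 4 hr array or the first or second 24 hr array, and 1 without the second 4 hr array. Hexokinase 2, Hk2, was raised at both times (3.21 and 2.69 above untreated). Of 30 p53 targets 2 rose (1.28% of all genes did), the apoptosis inducer Bbc3 by 1.00 and Zmat3 by 1.04, and both calls were lost without any 4 hr array or the first or second 24 hr array, whereas 6 rose without the third 24 hr array. The death receptor Fas fell by 1.68, from 2.54, 2.77 and 2.59 to 0.96, 0.87 and 1.03, with 1.37, 1.61 and 1.54 in untreated cells (adjusted p = 0.00162). Gadd45a was 2.14 and 2.36 above untreated and changed by 0.22 (adjusted p = 0.66).

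Of 12 receptors reported to bind BPA 1 was called, where 4.43% of all genes were, a count too small to set the list apart. Esrrg, the estrogen-related receptor gamma, which binds BPA tightly, fell from -1.66, -1.09 and -1.70 to -3.14, -3.93 and -3.22 (-1.94 ± 0.30 SE, adjusted p = 0.00921), with untreated levels of -1.59, -1.97 and -2.33 and a second probe at 0.15. Gper1 was below untreated at both times, by 1.19 and 1.33. Among 17 genes of aryl hydrocarbon receptor signaling and phenol conjugation 2 were called, where 4.43% of all genes were. Sult1a1, a sulfotransferase for phenols, fell by 1.88 to 3.1 below untreated, and Ahrr rose by 1.03. The call of Sult1a1 was lost without the second or the third 4 hr array or the second 24 hr array, and that of Ahrr without any 4 hr array or the second or the third 24 hr array.

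No member of 8 lists was called by limma, which held 30 NRF2 targets, 46 DNA replication genes, 40 mitosis genes, 40 oxidative phosphorylation genes, 30 ribosome biogenesis genes, 19 clock genes, 9 genes of metallothioneins and zinc transport, and 32 DNA repair genes that the study chose. In that order, 4, 7, 0, 1, 3, 6, 2 and 0 of them had an unadjusted p below 0.05, as did 3422 (21.6%) of all genes tested, and the medians were 0.13, 0.21, 0.08, 0.04, 0.07, 0.34, -0.16 and 0.14. Of the NRF2 targets the heme oxygenase Hmox1 and the cystine carrier Slc7a11 were above untreated at both times, by 1.5 and 1.69 and by 2.03 and 1.69. A single member, a share near the 4.43% of all genes, was called among each of 33 genes of cholesterol and fatty acid synthesis (Idi1, -1.17), 17 G1 regulators (the inhibitor Cdkn2b, -1.02), 24 ER chaperones (Sdf2l1, 1.64) and 19 heat shock proteins (Hspa4l, 1.19). Of these, Idi1 and Hspa4l lost the call without any 4 hr array or the second or the third 24 hr array, Hspa4l also without the second untreated array, Cdkn2b without any 4 hr array and Sdf2l1 without the second or the third. In the sterol list 8 genes were below untreated at 24 hr and 2 at 4 hr, against 2.51% and 1.73% of all genes, among them Hmgcs1 at both times (-1.01 and -1.35).

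The genes that the study ranked highest against untreated in these samples were tested in 17 of 19 cases, since Lgals12 and Dsc1 were well above background on the untreated arrays only. Of the 17, 8 fell and 3 rose, where 3.14% and 1.28% of all genes did, and as they were chosen on these samples their direction is not independent evidence. Besides those already given, Hcar2, the niacin receptor, fell by 2.78, Slc26a7, an anion transporter, by 2.63 and Npr3, the clearance receptor for natriuretic peptides that also binds osteocrin, by 1.67. Npr3 was 0.26, 0.45 and 0.05 in untreated cells, -1.62, -0.94 and -1.62 at 4 hr and -2.97, -3.17 and -3.04 at 24 hr, a stepwise order with no overlap. Fry rose by 1.39 from 2.26 below untreated at 4 hr, and its change ranged from 0.06 to 1.51 across the alternatives of processing. Cxcl3 fell by 1.34. The calls of Fry and Cxcl3 were both lost without the second or the third 4 hr array, that of Fry also without the first and that of Cxcl3 also without the second 24 hr array. Plch2, Wfdc17, Myh1, Saa3, Lcn2 and Hpgd had changes of 0.76, 0.79, -0.12, -0.02, 0.66 and -0.45 with adjusted p of 0.099, 0.34, 0.80, 0.98, 0.42 and 0.46. Not all of these genes differed from untreated as much as the study reports. Against the untreated array of the same slide Myh1 was at -0.30 and -0.20 at 24 hr, where the study ranks it among the strongest falls. Cxcl3 was at 2.36 and 2.35 at 4 hr, less than the study's fold, while Cxcl2 was at 5.17 and 5.46. Which probes lay behind the study's symbols is not known.

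The change under BPA alone was then set against that under co-exposure and under KBrO3 alone, which asks which part of it goes with BPA by itself. The change of BPA alone was higher in 2773 and lower in 2382 of 13905 genes tested against co-exposure (19.9% and 17.1%), and higher in 2962 and lower in 2104 of 13407 against KBrO3 alone (22.1% and 15.7%). These splits depend on scaling and on the weight given to each array set. Quantile normalization gave 2183 and 3045 against co-exposure and 2349 and 2730 against KBrO3 alone, and scaling to the median gave 1654 and 3503 and 2698 and 2021. Without a weight for each set the counts were 4088 and 2593 against co-exposure and 3677 and 2398 against KBrO3 alone. Treatment and array set coincide, since BPA alone was run in the second set and the others in the first, and the sets were read with different scanner models and software versions, so that what differs between sets other than a shift shared by both times cannot be told apart from treatment. Detection differed as well. In the first set 57.7 to 68.1% of the spots were well above background. The lowest such signal of an array was -5.88 to -5.09 there and -7.96 to -7.11 in the second set. Changes of dim genes could thus be cut short under co-exposure and KBrO3 alone.

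The leading inflammatory genes fell under co-exposure as well. Cxcl2 changed by -4.21 there and by -2.25 under KBrO3 alone, against -4.99 under BPA, and the difference passed the test for KBrO3 (-2.73 ± 0.59 SE, adjusted p = 0.00137) and not for co-exposure (-0.77 ± 0.57 SE, adjusted p = 0.302), where its signal was not well above background on any 24 hr array. Ccl20 behaved alike, with -4.53 and -2.52 (adjusted p = 0.452 and 0.0199 for the differences). Il6 and Egr4 changed by -3.34 and -4.77 under co-exposure and by -3.86 and -4.81 under KBrO3 alone, and neither difference passed (adjusted p = 0.598 and 0.343, and 0.0516 and 0.334).

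Inflammatory genes differed in both directions. Icam1, Tnfaip3, Ripk2, Cxcl9 and Fas fell further under BPA alone than under either other treatment. Icam1 changed by -1.5 under co-exposure and -1.23 under KBrO3 alone, differences of -1.89 ± 0.26 and -2.15 ± 0.27 (SE, adjusted p = 2.26e-05 and 6.17e-06). Tnfaip3 differed by -1.24 and -2.60, Ripk2 by -1.32 and -1.81, Cxcl9 by -1.71 and -3.31 and Fas by -1.85 and -1.92, all past the threshold. For the lists that follow, the shares over all genes were 19.9% higher and 17.1% lower against co-exposure and 22.1% and 15.7% against KBrO3 alone. Over the NF-kB list the change of BPA alone was lower in 10 genes and higher in 3 of 26 tested against co-exposure, and lower in 14 and higher in 4 of 26 against KBrO3 alone. Scaling to the median made these 15 and 2 and 14 and 3, quantile normalization 14 and 2 and 17 and 2, and normexp 6 and 2 and 11 and 2. For chemokines and cytokines the change under BPA alone was higher in 13 and lower in 3 of 28 against co-exposure and higher in 13 and lower in 7 of 27 against KBrO3 alone, with medians of -2.65 and -2.33 under those treatments. With scaling to the median these counts were 9 and 4 and 12 and 7, with quantile normalization 11 and 4 and 11 and 8, and with normexp 4 and 0 and 6 and 2. Immediate early genes had a higher change under BPA alone in 26 and a lower one in 1 of 38 against co-exposure, and in 27 and 2 of 38 against KBrO3 alone, with medians of -1.83 and -2.20 there, and scaling to the median gave 17 and 1 and 27 and 1. Ptgs2 and Arc also fell less under BPA alone, by 2.46 and 1.57 against co-exposure and by 2.51 and 2.02 against KBrO3 alone (adjusted p of at most 9.79e-05).

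The acute-phase list differed in most members. In 20 of 24 genes the change under BPA alone was higher than under co-exposure and in 1 lower, and in 17 of 24 higher than under KBrO3 alone and in 1 lower. The median change was -2.89 under co-exposure and -2.19 under KBrO3 alone against -0.04 under BPA alone. Hp changed by -6.58 under co-exposure and 0.84 under BPA alone, a difference of 7.43 ± 0.23 (SE, adjusted p = 3.33e-13). Saa3 and Lcn2 differed by 4.17 and 3.48, and Serpina3n by 6.47 against co-exposure and 6.72 against KBrO3 alone. Kng2 and Kng1 rose under BPA alone and had changes of -3.37 and -3.02 under co-exposure. Vit, vitrin of the extracellular matrix, differed by 7.10 and 6.95. Kng2 and Vit were not well above background on any 24 hr array of either other treatment, so these sizes rest on unmeasured levels and have no exact rank.

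In the other direction the largest fitted differences from co-exposure were those of Robo3, an axon guidance receptor (-4.94), Dnm3, a dynamin (-4.89), and Shisal2b (-4.35), with no 4 hr co-exposure array well above background for any of them. Robo3 rose under BPA alone by 1.75, and its call was lost without the second or the third 4 hr or the first or second 24 hr array. Under normexp its change turned to -0.50. Against KBrO3 alone they were those of H1f3 (-6.35), Nts (-5.86) and 1700049E17Rik1 (-5.13), which changed by 1.93, 2.29 and 2.34 under KBrO3 alone, Nts and 1700049E17Rik1 from 4 hr signals not well above background. Xdh and Cdsn rose more under BPA alone than under co-exposure (2.41 and 2.49, adjusted p = 1.38e-05 and 0.0200), and Car6 rose by 3.49 under co-exposure, a difference of -0.61 that did not pass (adjusted p = 0.282). Of 40 mitosis genes, where BPA alone had a median change of 0.08, 35 had a lower change than under co-exposure and 36 a lower one than under KBrO3 alone, whose medians were 1.2 and 1.45. Of 32 DNA repair genes, 18 and 14 had a lower change and 3 and 2 a higher one, with medians of 0.94 and 0.72 under those treatments. With normexp 10 and 9 were lower and 1 and 1 higher.

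**Figure D4:**
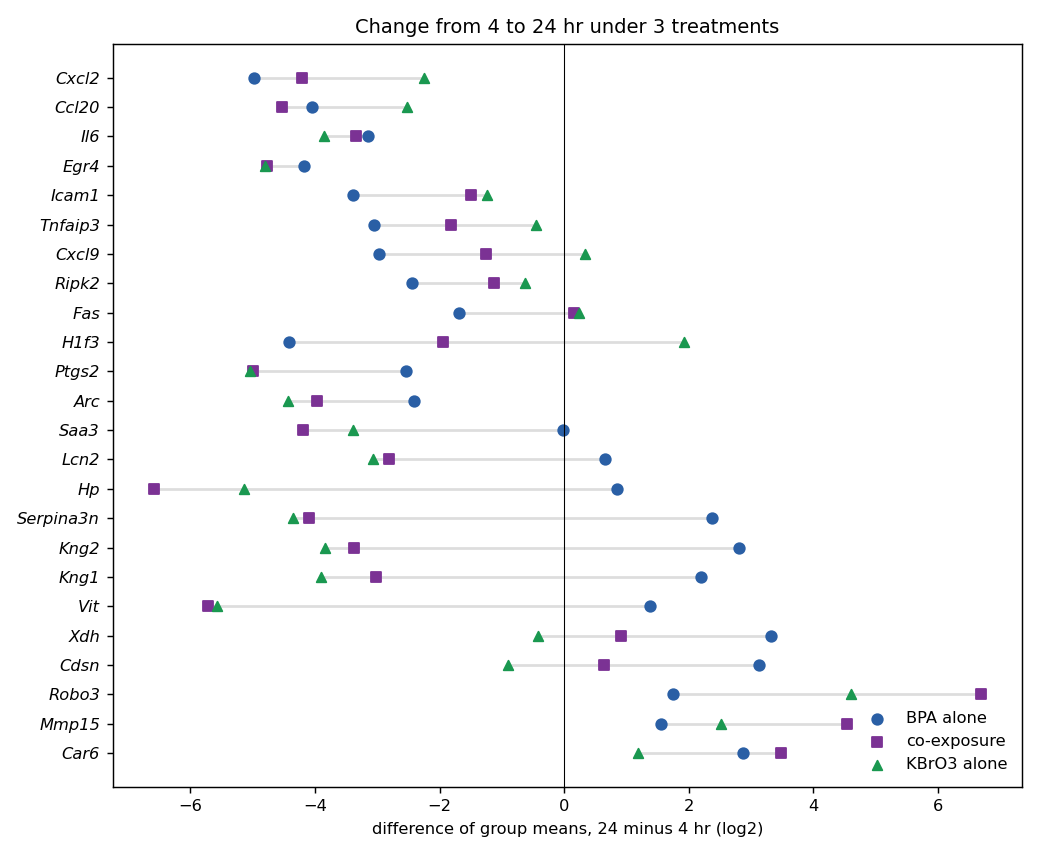
Change from 4 to 24 hr (horizontal axis, log2 difference of group means, 3 arrays each) under BPA alone (circles), co-exposure (squares) and KBrO3 alone (triangles) for 24 genes described in the text. Hp, Serpina3n, Kng2, Kng1 and Vit have positive values under BPA alone and values of -3.02 or less under the other treatments, while Il6 and Egr4 lie close together in all 3.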

How the data were processed

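RNA of each sample was labeled with Cy3 and hybridized to 1 Agilent array. The authors deposited scanner output of Agilent Feature Extraction as intensity per spot (processed signal, raw median signal, local background, error), and a series table whose 1080432 compared values all equal the processed signal. Per the file headers the 15 arrays of the first set were read on scanner model G2505B with software version 9.5.3.1, and the 9 of the second set on model G2505C with version 12.0.0.7, where the submitters' processing notes name version 12.0 alone. The software corrects background within an array and does not normalize between arrays. Array groups were taken from the sample labels.

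Here, log2 processed signal minus each array's 75th percentile over non-control spots was averaged over the spots of a probe, with outlier spots set aside. A probe was tested when well above background on all 3 arrays of either BPA time (31468 probes). Genes are protein-coding RefSeq genes of GRCm38.p6, each by its tested probe of highest mean signal, and 136 tested probes had a value missing. limma 3.58.1 in R 4.3.3 (lmFit, eBayes, two-sided, Benjamini-Hochberg over all probes) fitted the 9 arrays of the second set together. The differences between changes used all 24 arrays with 1 weight per array set. Where all arrays of a group left a probe short of the background flag, a fold is a lower bound against the lowest signal well above background, or the probe's own signal where higher. SE is the standard error of limma. The fit was tested on simulated data. Python 3.11.15, pandas 2.3.3 and matplotlib 3.10.9 made tables and figures.

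The comparison and the gene lists were chosen with earlier results of these data known. Named genes are the 12 largest called rises and falls, the genes ranked highest by the study, up to 4 called members of each list with the largest change (or the 2 brightest), Xrcc6, and the 3 largest differences each way against the other treatments. Other list members named were chosen after their values were seen. Alternatives tried were quantile and median scaling, normexp background correction with offset 50 (on the raw median signal, since the second set's files hold no mean signal), the series table, other filters on dim probes, the 6 BPA arrays alone, replicate number or slide as a block, error weights, no array weights, other call rules and each array left out. Replicate numbers do not pair the samples of the 2 BPA times. The main fit holds no term for variation that arrays of different groups share.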

Additional observations from a re-analysis of the deposited data

Results flagged for a closer look

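The change from 4 to 24 hr differed between BPA alone and co-exposure in 5155 genes and between BPA alone and KBrO3 alone in 5066 genes, by a test of the difference itself. The largest fitted differences from co-exposure, on the log2 scale, were 7.43 for Hp, 7.10 for Vit and 6.47 for Serpina3n, and in the other direction -4.94 for Robo3, -4.89 for Dnm3 and -4.35 for Shisal2b. Those from KBrO3 alone were 6.95 for Vit, 6.72 for Serpina3n and 6.64 for Kng2, and -6.35 for H1f3, -5.86 for Nts and -5.13 for 1700049E17Rik1. The sizes and ranks of several are not exact. Under the other treatments Vit and Kng2 were not well above background on any 24 hr array, nor were Robo3, Dnm3 and Shisal2b on any 4 hr co-exposure array or Nts and 1700049E17Rik1 on any 4 hr KBrO3 array. Each of these differences spans the 2 array sets.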

How the results depend on the processing

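The 703 genes called in the main setting kept their direction, where they were tested, under each alternative fit of the same probe except normexp, where 656 did. In all of them the arrays of the 2 times lay apart, so leaving out or reweighting arrays could not turn a direction. Much of this agreement was therefore set by the calling on the same arrays. Calling a gene by any of its probes gave 931 genes, and their directions were not compared. normexp gave 0 calls for the change, 15 at 4 hr and 0 at 24 hr against untreated, and 2366 and 2357 for the differences from co-exposure and KBrO3 alone. On the first untreated and the third 4 hr array 6 and 8 spots lay far below their background, and without such spots, an alternative chosen after seeing the data, the change gave 771 calls. Under normexp Chst13 (-0.59), Lhfpl3 (-0.70), Klra2 (-0.67), Mmp15 (-0.29) and Robo3 (-0.50) reversed. Slide as a fixed block gave 0 calls with few residual degrees of freedom, and as a random block 615. Bonferroni gave 11, 684 and 682 calls for the change and the 2 differences. Median scaling gave 471 genes at 4 hr and 452 at 24 hr against untreated. Leaving out each array gave 209 to 724 calls for the change, 202 to 695 at 4 hr and 320 to 634 at 24 hr.

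Same-numbered arrays of the 2 BPA times had residual correlations of -0.305, -0.309 and 0.0351, so the numbers do not pair samples of those times. Over all pairs of arrays from different groups the correlations ran from -0.526 to 0.653. The highest was that of the first untreated with the first 24 hr array. Some variation is thus shared across groups, and its source was not tested. With the replicate number as a block, 459 genes were called, 109 higher and 350 lower. Signal over background limits the dimmest probes.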
